A study of Homo sapiens with 8 samples.

Results

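SK-N-MC is an established cell line from an Ewing sarcoma, and 9 of its genes that handle acid and bicarbonate are described here: the carbonic anhydrases CA9, CA12, CA2, CA11 and CA13, the bicarbonate transporters SLC4A2, SLC4A7 and SLC4A4, and BSG, the chaperone of the lactate carriers. They were picked by gene symbol from a table of 60332 genes, and each symbol matched 1 row. RNA was sequenced from 8 libraries in 4 groups of 2: control cells in normoxia, and control, eKD1 and eKD2 cells after 16 h in 1% oxygen. All cells carried lentiviral dCas9-KRAB, a Cas9 that cannot cut DNA fused to a repressor domain, and had been selected with puromycin. Control cells had the empty vector, whereas eKD1 and eKD2 were polyclonal pools in which 2 different guides brought the repressor beside the GGAA-repeat enhancer of LOXHD1. No eKD library from normoxia was analysed here, so the response to hypoxia could be tested only in control cells. Duplicates are biological according to the study's methods, but their origin from separate cultures is not spelled out, and the p-values measure the spread between these libraries.

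Cells that run on glycolysis produce acid and must move it out. Monocarboxylate carriers, which need BSG or a relative to reach the membrane, export lactate together with a proton. Carbonic anhydrases interconvert carbon dioxide with bicarbonate and a proton, inside or outside the cell depending on the enzyme, and transporters of the SLC4 family carry bicarbonate across the membrane and so set the pH inside. CA9, a membrane enzyme whose active site faces outward, is a classical target of the hypoxia-inducible factors (HIF) and a widely used marker of hypoxic tumour cells.

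The promoter of CA9 is shown because its transcript was the one that appeared with hypoxia. CA9 (ENSG00000107159.12_2) lies on chromosome 9 at 35673925 to 35681156 on the plus strand (GRCh37). HIF binds the letters ACGTG or GCGTG, which were searched on both strands of windows from 250 bases before to 50 bases after the start site (RefSeq, GRCh38.p14). In the CA9 window ACGTG occurred once, on the other strand, 18 to 14 bases before the start, and GCGTG did not occur. Capitals mark these letters as they read on the strand of the gene in the 250 bases before the start, chr9:35673678-35673927.
CA9 promoter: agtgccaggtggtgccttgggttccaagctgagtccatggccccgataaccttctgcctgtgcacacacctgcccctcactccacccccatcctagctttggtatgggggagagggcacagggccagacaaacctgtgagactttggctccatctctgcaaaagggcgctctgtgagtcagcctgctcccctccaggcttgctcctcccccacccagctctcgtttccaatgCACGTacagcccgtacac

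For comparison, 1 match is shown from each of PGK1 and LDHA, a pair of glycolytic enzyme genes whose levels across the 8 libraries ran most nearly alongside that of CA9 after ENO1. The first is at chrX:78104034-78104062 and the second at chr11:18394465-18394493, both on the plus strand, with ACGTG in capitals.
PGK1 match: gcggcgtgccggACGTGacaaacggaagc
LDHA match: agcccgactcacACGTGggttcccgcacg
ACGTG was present in 21.4% and GCGTG in 36.5% of 35116 such windows, and 48.4% held at least 1 of them, so a match is common. PGK1 and LDHA each had ACGTG at 3 places, and ENO1 had only GCGTG, at 2 places. Of the other members with an entry, CA12 and SLC4A2 each had GCGTG at 2 places, SLC4A7 at 3 and SLC4A4 at 1, and the BSG window had neither motif. CA2, CA11 and CA13 had no entry.

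**Figure D1:**
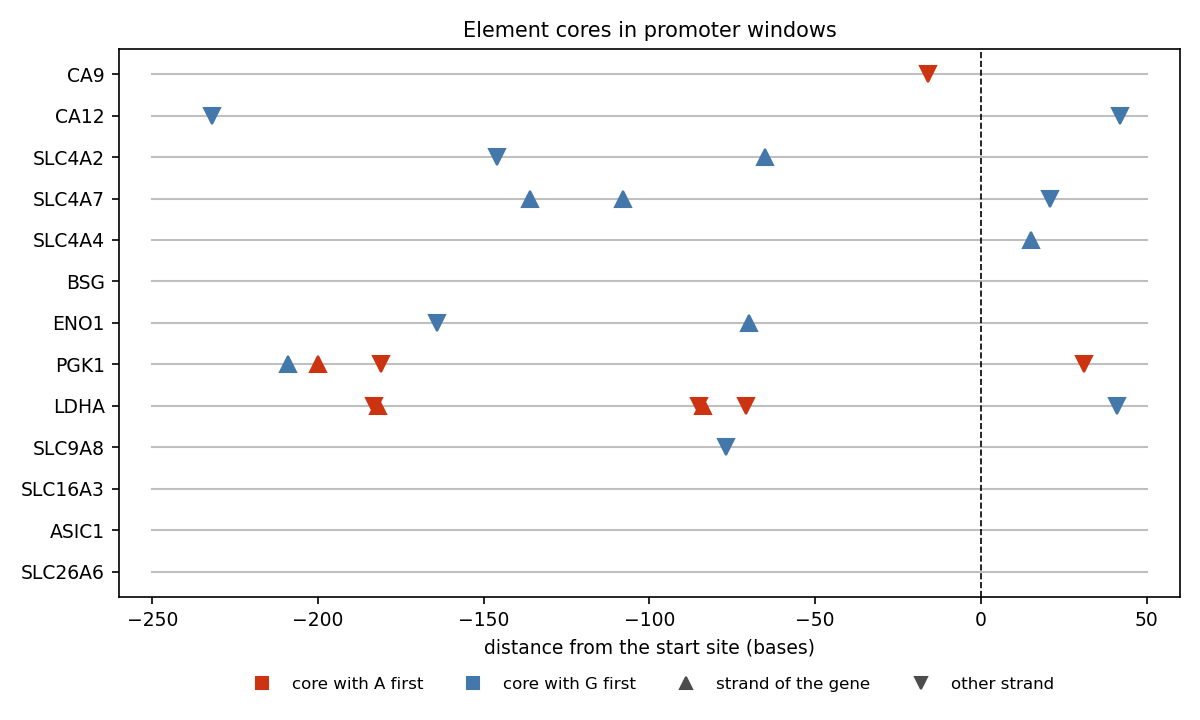
Positions of the 2 searched motifs in the promoter windows of genes with an entry. The horizontal axis is the distance from the start site in bases, red marks ACGTG and blue GCGTG, and triangles point up for the strand of the gene and down for the other strand. The only match for CA9 lies just before its start site, at -18 to -14.

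The values are FPKM, reads per kilobase of transcript scaled to the library, so that levels of different genes can be set side by side. Library totals ran from 865107 to 1041457 FPKM, and the relative depth read from the low values ran from 55.9% to 100% of the deepest library, while the absolute depth is unknown. Normoxia had the 2 lowest totals (865107 and 877580 FPKM), at a relative depth of 75.8% and 55.9%. Control hypoxia had the 2 highest totals (1041457 and 1018475 FPKM), at 100% and 95.9%. These groups thus differed in total and depth as well as in oxygen, and the part of this in the results was not tested. LOXHD1, the gene behind the targeted enhancer, was at 155.8 and 168.5 FPKM in normoxia, 93.0 and 91.1 in control hypoxia, 17.3 and 15.0 in eKD1 and 11.7 and 11.8 in eKD2, which follows the labels. All 6 Ewing sarcoma markers examined (CD99, NKX2-2, NR0B1, STEAP1, PRKCB and LIPI) were present, with a summed level of 657.2 and 679.2 FPKM in normoxia and 564.6 to 635.7 in the 6 hypoxia libraries. CD99 made up most of the control hypoxia sum, at a mean of 411.6 FPKM there against 315.8 in normoxia, while STEAP1 went from 114.7 to 66.0, NR0B1 from 60.1 to 32.3 and LIPI from 53.3 to 11.03. Of the 3 markers of other cells, TH was listed at 0 throughout. The sum of these 3 was 28.3 and 27.2 FPKM in normoxia, 10.3 and 8.997 in control hypoxia, 15.5 and 15.2 in eKD1 and 20.0 and 17.5 in eKD2. PTPRC, a leukocyte gene, gave 22.5 and 23.8 FPKM of this in normoxia, 4.87 and 5.39 in control hypoxia, 10.0 and 9.59 in eKD1 and 14.3 and 13.5 in eKD2, and the epithelial gene EPCAM 3.39 to 5.80 over all libraries. Their part in the results was not tested. RNA came from whole cultures, so a lower level per cell and fewer cells with the transcript cannot be told apart.

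In normoxia BSG stood highest, followed by SLC4A2 and CA11. BSG had a mean of 617.3 FPKM (SD 28.3, n = 2), SLC4A2 of 125.2 (SD 2.4996) and CA11 of 21.4 (SD 3.04). SLC4A4, CA13 and SLC4A7 lay at means of 7.74, 5.95 and 4.99 FPKM, and the libraries of CA13 and SLC4A7 overlapped. CA2, CA12 and CA9 were all under 1 FPKM in normoxia and also overlapped in neighbouring pairs. In control hypoxia the order was BSG, SLC4A2, CA9, CA11, SLC4A7, CA13, SLC4A4, CA12 and CA2, with no overlap between neighbours. CA9 had thus moved from the bottom to the third place, and SLC4A4 from the fourth to the seventh. In the eKD1 libraries the order of means was the same as in control hypoxia, with CA12 and CA2 overlapping. In eKD2 CA13 stood above SLC4A7, and CA2 above CA12.

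**Figure D2:**
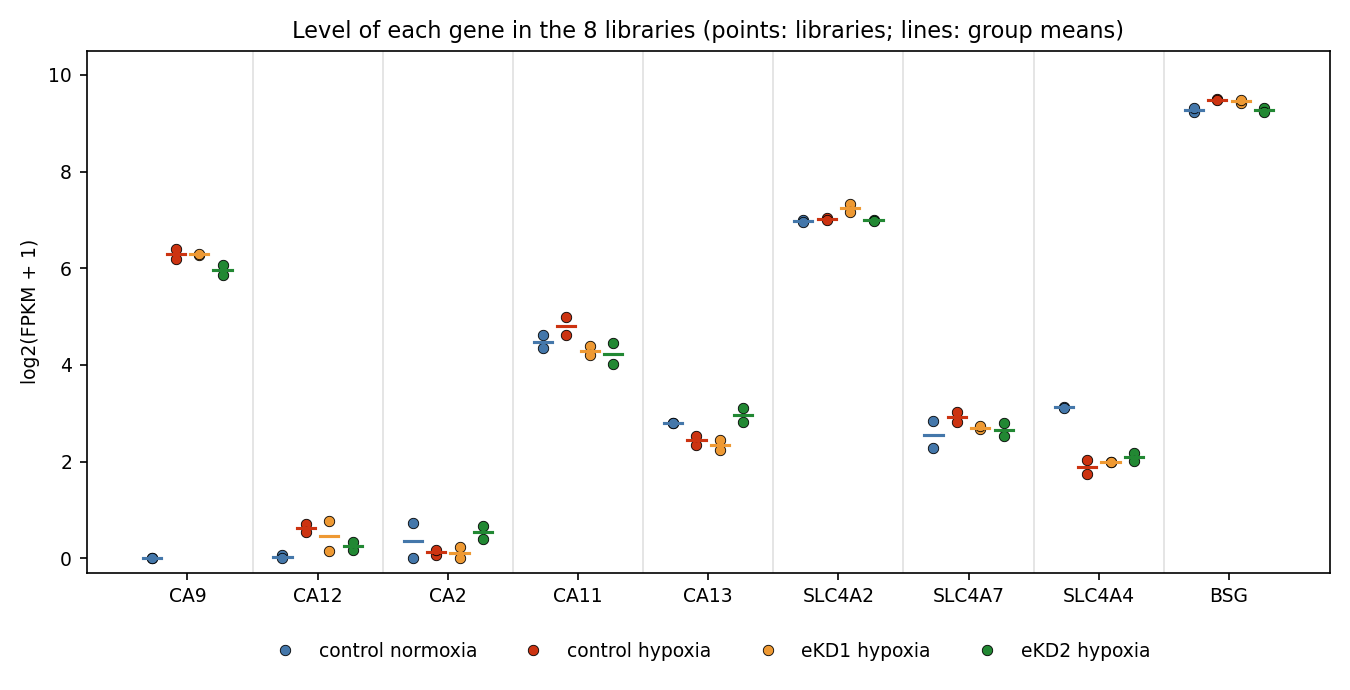
Level of the 9 genes in every library. The vertical axis is log2(FPKM + 1), points are libraries, horizontal lines are group means and colours are the 4 groups. CA9 is at 0 in both normoxia libraries and between 56.9 and 82.8 FPKM in the 6 hypoxia libraries, and SLC4A4 is lower in every hypoxia library than in both normoxia libraries.

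The first comparison asked how control cells respond to low oxygen. CA9 was listed at 0 in normoxia and was abundant in hypoxia, BSG rose and SLC4A4, an electrogenic sodium-bicarbonate cotransporter, fell, whereas CA11, CA13, SLC4A2 and SLC4A7 did not pass the test. Of the 9 members, 7 reached at least 1 FPKM in at least 2 libraries and were tested, and 3 of these were called by limma at an adjusted p under 0.05. The same threshold called 32.2% of all 15372 genes tested, so the number of calls among the members sets them apart in no way. CA9 passed the filter only through its hypoxia libraries and therefore had to differ, so its call is no support for a difference, and its values are given as a description. With any 1 of the 4 libraries left out, no gene of the whole table was called by limma, and the adjusted p over these omissions was 0.0818 to 0.108 for SLC4A4 and 0.0727 to 0.211 for BSG.

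CA9 was listed at 0 FPKM in both normoxia libraries and stood at 82.8 and 72.0 FPKM in control hypoxia. The groups lay far apart. No fold change is given, because one group was at 0 and no read counts were at hand. The normoxia libraries also listed 2 and 3 genes at 0 that were at 10 FPKM or more in all other libraries, and whether the 0 of CA9 is a failed estimate was not tested. Over 1939 bases CA9 overlaps ARHGEF39 on the opposite strand, and the library kit does not mark strand, so reads from the shared part cannot be told apart. ARHGEF39 was at 20.3 and 15.3 FPKM in normoxia and 11.4 and 7.88 in control hypoxia, the opposite direction to CA9.

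CA12 (chromosome 15, 63613577 to 63674045, minus strand), another carbonic anhydrase whose active site faces outward, stayed at very low levels. Its values were 0.0455 and 0 FPKM in normoxia and 0.646 and 0.452 in control hypoxia. The groups did not overlap, but CA12 stayed below the filter and was not among the genes tested. In a fit without the filter its difference was 0.60 on the log2(FPKM + 1) scale (SE 0.105) with an adjusted p of 0.0465 by limma.

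The cytosolic enzymes gave no call. CA13 (chromosome 8, 86132816 to 86196302, plus strand) was at 5.96 and 5.94 FPKM in normoxia and 4.11 and 4.77 in control hypoxia. The groups did not overlap, but the difference of -0.36 (SE 0.142) had an adjusted p of 0.137 by limma. CA2 (chromosome 8, 86376197 to 86393722, plus strand), the fast and widespread cytosolic form, was at 0 and 0.656 FPKM in normoxia and 0.0538 and 0.127 in control hypoxia. The groups overlapped, and without the filter the adjusted p by limma was 0.599.

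CA11 (chromosome 19, 49141203 to 49149444, minus strand) encodes a secreted member of the family that lacks enzymatic activity. It was at 19.3 and 23.6 FPKM in normoxia and 23.7 and 30.6 in control hypoxia. The libraries of the groups nearly touched, and the difference of 0.32 (SE 0.1799) had an adjusted p of 0.242 by limma. Leaving aside the inactive CA8, CA10 and CA11, the 12 other carbonic anhydrases summed to 10.7 and 10.4 FPKM in normoxia and 92.2 and 82.2 in control hypoxia. CA9 made up 89.8% and 87.6% of the sum in control hypoxia. Without CA9 the remaining 11 summed to 9.36 and 10.2 FPKM there, so the gain of the family in FPKM, as listed, lay in CA9. It rests on the 0 of CA9 in normoxia, and whether that 0 is a failed estimate was not tested.

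SLC4A4 (ENSG00000080493.15_3, chromosome 4, 71928384 to 72437804, plus strand) was the member that fell. The locus listed with its FPKM values starts later, at 72052473. SLC4A4 was at 7.81 and 7.67 FPKM in normoxia and 3.11 and 2.35 in control hypoxia. Both hypoxia libraries were below both normoxia libraries, with a ratio of means of 0.353. The difference on the log2(FPKM + 1) scale was -1.24 (SE 0.168, 95% interval -1.71 to -0.76) with an adjusted p of 0.0164 by limma.

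The other bicarbonate transporters gave no call. SLC4A2 (chromosome 7, 150754297 to 150773613, plus strand), an exchanger of chloride for bicarbonate, was at 127.0 and 123.4 FPKM in normoxia and 130.5 and 126.8 in control hypoxia. Its libraries overlapped between the groups, and the difference was 0.039 (95% interval -0.10 to 0.18, adjusted p = 0.590 by limma). With the libraries scaled to equal FPKM totals it was -0.20 with an adjusted p of 0.0521 by limma, so its direction depends on the scaling. SLC4A2 overlaps CDK5 on the opposite strand over 688 bases, and CDK5 was at 21.4 to 34.3 FPKM. SLC4A7 (chromosome 3, 27414212 to 27525911, minus strand), an electroneutral sodium-bicarbonate cotransporter, was at 6.12 and 3.87 FPKM in normoxia and 6.05 and 7.10 in control hypoxia. These groups overlapped as well, and the difference of 0.36 (SE 0.245) had an adjusted p of 0.324 by limma.

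BSG (ENSG00000172270.18_2, chromosome 19, 571277 to 583494, plus strand) rose slightly. It was at 597.3 and 637.3 FPKM in normoxia and 724.9 and 710.1 in control hypoxia. Both hypoxia libraries were above both normoxia libraries, and the ratio of means was 1.16. The difference on the log2(FPKM + 1) scale was 0.22 (SE 0.0486, 95% interval 0.080 to 0.35) with an adjusted p of 0.0420 by limma. This call was lost without the filter (adjusted p = 0.0788), with the replicate block (0.0996) and without the variance trend (0.150), all by limma. At equal FPKM totals, where the median of all genes moved from 0.013 to -0.19, the difference was -0.024 with an adjusted p of 0.696 by limma. BSG overlaps the antisense gene BSG-AS1 over 952 bases, which was at 5.24 FPKM at most.

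The carriers that BSG serves were among the genes of 5 related lists, which were fitted in the same way. Both main lactate carriers were called higher in hypoxia. SLC16A1 was at 56.5 and 54.7 FPKM in normoxia and 99.8 and 103.3 in control hypoxia (difference 0.86, SE 0.0583, adjusted p = 0.00801 by limma). SLC16A3, the carrier best known from glycolytic cells, was at 0.179 and 1.28 FPKM in normoxia and 6.01 and 7.83 in control hypoxia (difference 2.26, SE 0.391, adjusted p = 0.0254 by limma). Only 1 normoxia library of SLC16A3 was at 1 FPKM or more, so the gene entered the test through its hypoxia libraries, and its call was lost with a pseudocount of 0.1 (adjusted p = 0.0587 by limma) and without the filter (0.0504). BSG thus exceeded the sum of these carriers in FPKM in every library. NPTN, a relative of BSG, ran at 58.7 to 84.5 FPKM over the 8 libraries. It was at 74.0 and 70.8 FPKM in normoxia, 62.9 and 58.7 in control hypoxia and 78.8 and 84.5 in eKD1. Neither its hypoxia difference of -0.25 (adjusted p = 0.0664 by limma) nor its eKD1 difference of 0.42 (adjusted p = 0.120 by limma) was called. EMB, the other relative, was at 0.183 FPKM at most.

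Of the 6 monocarboxylate carriers and chaperones, 4 were tested and 2 rose, with a median difference of 0.83 against 0.013 over all genes. The 4 differences ran from -0.25 for NPTN to 2.26 for SLC16A3. Medians of such short lists are given as a description and set no list apart. The counts of calls in these short lists stand beside 32.2% called among all genes and set no list apart. An unadjusted p under 0.05 by limma was reached by 7053 of the 15372 genes, so such counts set none apart either. Of the 12 proton channels and sensors, 4 were tested and 2 rose, HVCN1 (a voltage-gated proton channel) from a mean of 1.48 to 5.13 FPKM and ASIC1 (a sodium channel opened by protons) from 3.18 to 10.9, with a median of 0.86. Of the 14 sodium-proton exchangers and cofactors, 8 were tested, 4 had an unadjusted p under 0.05 and 1 fell, SLC9A8, from 3.73 to 1.71 FPKM, with a median of 0.23. Their best measured members were SLC9A3R2 (16.7 to 32.5 FPKM), SLC9A3R1 (13.2 to 27.02), CHP1 (15.0 to 24.8) and SLC9B2 (12.6 to 20.2), and none of these 4 was called. Of 12 other bicarbonate transporters 6 were tested and none was called, with 2 at an unadjusted p under 0.05 by limma and a median of 0.26. SLC26A6, the most abundant of them, was at 7.23 and 10.1 FPKM in normoxia and 14.2 and 15.6 in control hypoxia (adjusted p = 0.0561 by limma). Of 10 other carbonic anhydrases only CA3 and CA5B were tested, neither was called by limma and neither had an unadjusted p under 0.05, and 4 were listed at 0 in all 8 libraries.

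**Figure D3:**
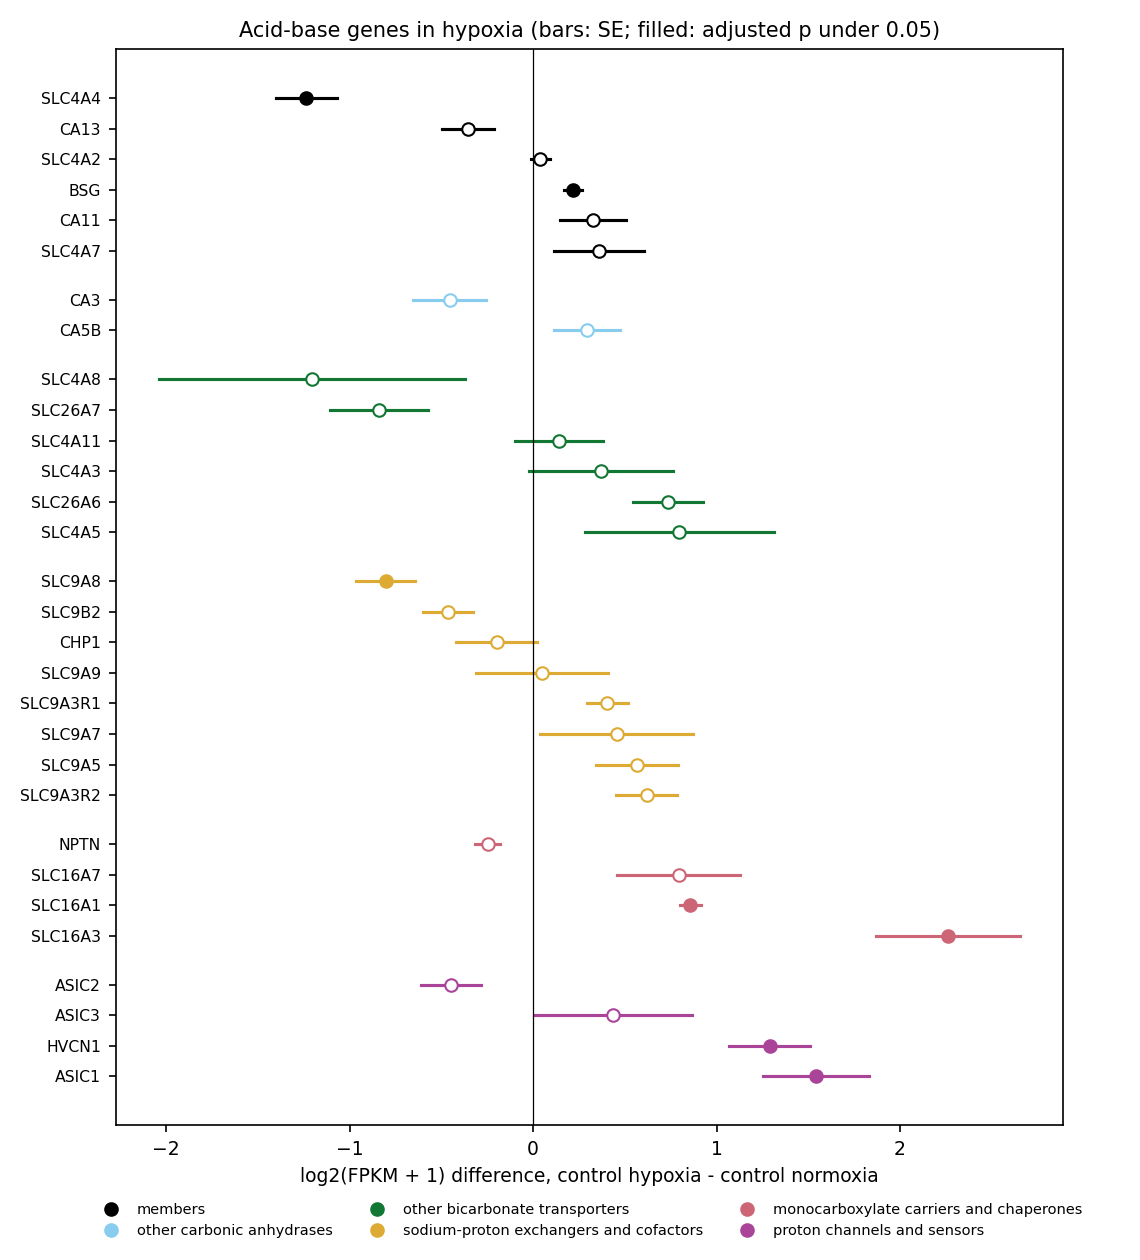
Difference between control hypoxia and control normoxia on the log2(FPKM + 1) scale for the tested members and the tested genes of 5 related lists. Points are differences, bars are standard errors of the fit, colours are the lists, and filled points have an adjusted p under 0.05 by limma. CA9 is left out because it was at 0 in normoxia. SLC4A4 is the lowest of all points at -1.24, and SLC16A3 the highest at 2.26.

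The next comparisons asked whether repression of the LOXHD1 enhancer changed these genes in hypoxia. They share the control hypoxia libraries with each other and with the first comparison. No member was called by limma in eKD1, where 1 of the 7 tested had an unadjusted p under 0.05, as had 3337 of the 15372 genes, and 0.0651% of all genes were called. No member was called in eKD2 either, where 2 had an unadjusted p under 0.05, as had 5048 genes, and 9.61% of all genes were called. In the direct comparison of eKD2 with eKD1, 0 members were called, 4 had an unadjusted p under 0.05, as had 3623 genes, and 0.403% of all genes were called.

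CA9 was at 76.6 and 77.5 FPKM in eKD1, between the control hypoxia libraries at 72.0 and 82.8. The difference was -0.0037 on the log2(FPKM + 1) scale with a 95% interval of -0.25 to 0.25. In eKD2 it was at 66.0 and 56.9 FPKM, below both control hypoxia libraries and both eKD1 libraries. The difference from control hypoxia was -0.33 (SE 0.118, 95% interval -0.66 to 0.0062, adjusted p = 0.157 by limma), a ratio of means of 0.794. The difference from eKD1 was -0.32 (95% interval -0.60 to -0.052, adjusted p = 0.171 by limma). A lower CA9 level in eKD2 was thus seen in both libraries and did not pass the adjusted threshold. In all 4 eKD libraries CA9 remained far above the 0 of normoxia, and it made up 80.6% to 90.4% of the summed carbonic anhydrases with catalytic activity.

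SLC4A4 had a mean of 2.999 FPKM over 2 nearly equal eKD1 libraries (SD 0.000566) and was at 3.56 and 3.01 in eKD2. All 4 libraries were below 7.67 FPKM, the lower normoxia library, and neither difference from control hypoxia was called (0.11 for eKD1, adjusted p = 0.757, and 0.20 for eKD2, adjusted p = 0.490, both by limma). BSG was at 683.7 and 717.1 FPKM in eKD1 and 639.2 and 601.2 in eKD2. The eKD1 libraries overlapped control hypoxia, whereas both eKD2 libraries were below it and overlapped the normoxia libraries. The BSG difference was -0.035 (95% interval -0.16 to 0.088) for eKD1 and -0.21 (SE 0.0465, 95% interval -0.34 to -0.078, adjusted p = 0.0722 by limma) for eKD2. With median-of-ratios rescaling the eKD2 difference was -0.28 and was called (adjusted p = 0.0433 by limma), and at equal FPKM totals it was -0.10 (adjusted p = 0.218 by limma).

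CA13 and CA11 were the members with the largest differences in the eKD comparisons. CA13 was at 3.75 and 4.44 FPKM in eKD1, overlapping control hypoxia, and at 6.03 and 7.62 in eKD2. Both eKD2 libraries were above every other library of the series. The difference of eKD2 from control hypoxia was 0.52 (SE 0.172, 95% interval 0.029 to 1.01, adjusted p = 0.138 by limma), and from eKD1 it was 0.62 (adjusted p = 0.175 by limma). CA11 was at 19.9 and 17.4 FPKM in eKD1 and 15.2 and 20.9 in eKD2. All 4 libraries were below the control hypoxia libraries at 23.7 and 30.6, with differences of -0.51 (SE 0.165, adjusted p = 0.207) for eKD1 and -0.57 (SE 0.219, adjusted p = 0.175) for eKD2, both by limma.

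SLC4A2 was at 160.7 and 141.5 FPKM in eKD1, the highest 2 of the 8 libraries, and at 126.3 and 125.7 in eKD2. The difference was 0.23 (95% interval -0.0025 to 0.46, adjusted p = 0.233 by limma) for eKD1 and -0.030 (adjusted p = 0.695 by limma) for eKD2. SLC4A7 was at 5.35 and 5.64 FPKM in eKD1 and 5.94 and 4.74 in eKD2, all below both control hypoxia libraries. Its differences were -0.22 and -0.26, with adjusted p-values of 0.454 and 0.363 by limma. CA12 was at 0.116 and 0.712 FPKM in eKD1 and 0.124 and 0.269 in eKD2, and CA2 at 0 and 0.176 in eKD1 and 0.596 and 0.316 in eKD2. Without the filter neither was called in an eKD comparison, with adjusted p-values from 0.202 to 0.978 by limma. CA12 and CA2 were thus near the lower end of the measured range in all hypoxia groups.

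**Figure D4:**
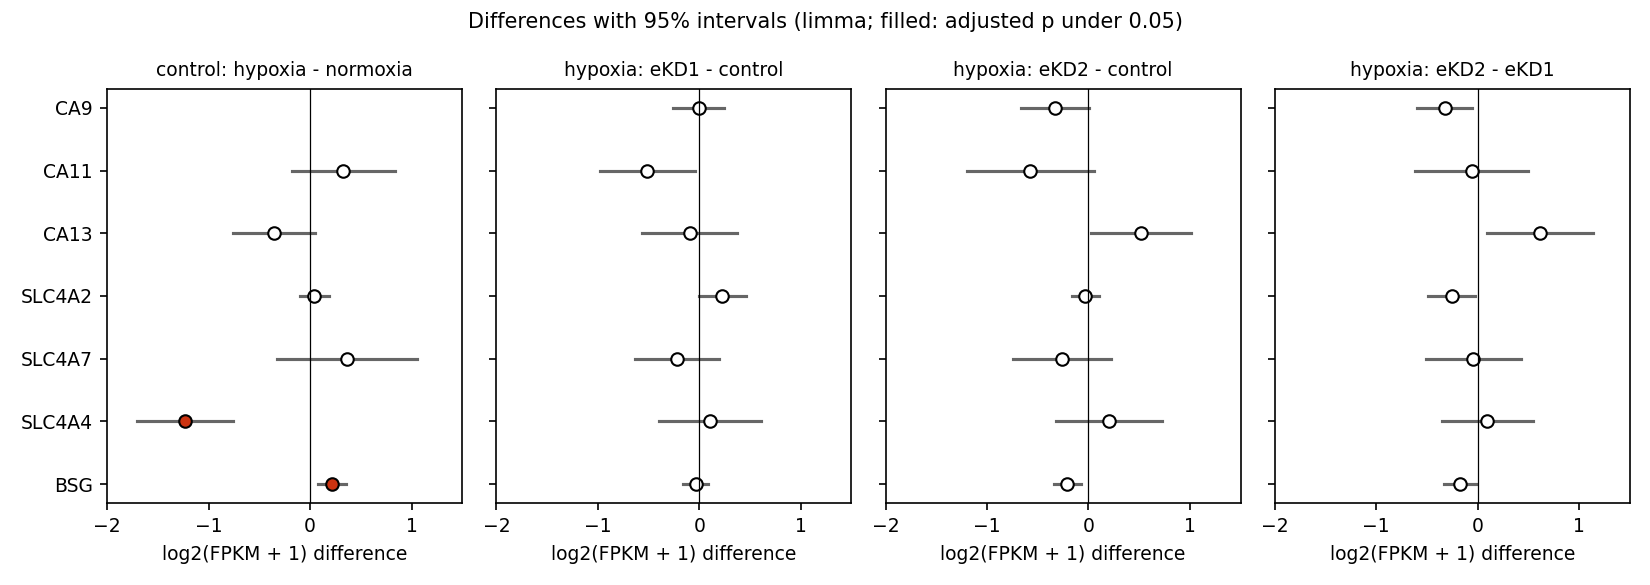
Differences of the tested members in the 4 comparisons, on the log2(FPKM + 1) scale. Points are differences, bars are 95% intervals from limma, and filled points have an adjusted p under 0.05. CA9 is left out of the first panel because it was at 0 in normoxia. Filled points stand only for SLC4A4 at -1.24 and BSG at 0.22 in the hypoxia comparison.

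Among the 5 related lists, with 4, 4, 8, 6 and 2 genes tested, none was called by limma in eKD1 or between the eKD groups. In eKD1 3 of them had an unadjusted p under 0.05, as had 3337 of all 15372 genes. Between the eKD groups 0 had, against 3623 genes. In eKD2 1 list gene was called, against 9.61% of all genes. These counts are not read as a result about the lists. The gene called was SLC26A6, an anion exchanger that can carry bicarbonate. It was at 9.03 and 9.14 FPKM in eKD2 against 14.2 and 15.6 in control hypoxia (difference -0.66, SE 0.106, adjusted p = 0.0473 by limma). At equal FPKM totals its adjusted p was 0.0573, and the call was kept in 5 of 13 alternatives. SLC16A1 was at 103.8 and 93.6 FPKM in eKD1 and 83.1 and 86.2 in eKD2, below control hypoxia in eKD2 with an adjusted p of 0.0668 by limma. SLC16A3 was at 8.12 and 8.46 FPKM in eKD1 and 6.49 and 7.73 in eKD2, which gave no call.

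The genes whose profile was most like that of each tested member were sought among 9784 other protein-coding genes with a mean of at least 5 FPKM. Pearson's r over the 8 libraries describes the likeness, and it is set mostly by the step between normoxia and hypoxia where a member has one. CA9 ran closest to ENO1 (r = 0.999), PGK1 (0.998) and LDHA (0.998), all glycolytic enzymes. The ENO1 level was 1674 and 1750 FPKM in normoxia and 4759 to 5029 in the 6 hypoxia libraries. SLC4A4 ran closest to PUS1 (0.995), LIG4 (0.991) and DDX1 (0.989), which encode a pseudouridine synthase, a DNA ligase and an RNA helicase. BSG ran closest to NUDT1 (0.985), VDAC1 (0.983) and SQSTM1 (0.977). VDAC1, a channel of the outer mitochondrial membrane, was at 219.4 and 238.8 FPKM in normoxia, 321.6 and 312.8 in control hypoxia, 287.3 and 301.9 in eKD1 and 232.1 and 219.1 in eKD2. ENO1 and VDAC1 were picked for likeness over these same 8 libraries. Their levels are therefore no support for the differences of CA9 and BSG, called or uncalled.

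The remaining members, which had no call, had looser matches. CA13 ran with SLC35E2B (0.966), ZSCAN21 (0.959) and DLG4 (0.957), CA11 with RIC8B (0.948), AMY2B (0.920) and SPG7 (0.900), SLC4A7 with WDR91 (0.946), NT5DC3 (0.937) and PHLDB1 (0.907), and SLC4A2 with GPR153 (0.921), CIB1 (0.912) and EZR (0.907). DLG4, the gene of a postsynaptic scaffold, was highest in the eKD2 libraries at 24.5 and 29.3 FPKM, as CA13 was. EZR, the membrane-actin linker ezrin, was highest in the eKD1 libraries at 83.7 and 82.1 FPKM, as SLC4A2 was. Both were picked as among the most alike of 9784 genes over 8 libraries. Their likeness is therefore no support for the uncalled differences of CA13 and SLC4A2.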

How the data were processed

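Poly-A selected RNA from 8 SK-N-MC libraries was sequenced as single-end reads of 75 bases, with a kit that does not mark strand. The authors aligned the reads to GRCh37 with STAR 2.5.1 and deposited FPKM values from cufflinks and cuffnorm. Scaling between libraries by cuffnorm is not given in the sources used here, and the counts that the study tested with DESeq2 were not used here. Groups and replicate numbers came from the sample titles.

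The filter kept 15372 genes that reached 1 FPKM in 2 or more libraries, and values entered as log2(FPKM + 1), which understates changes of low genes. Each comparison of 2 against 2 libraries was fitted alone with limma 3.58.1 in R 4.3.3 (eBayes with a variance trend). P-values were two-sided, with Benjamini-Hochberg adjustment across the genes that passed the filter. Without counts no interval or detection floor was computed for single values. Gene positions came from GENCODE version 44 on GRCh37, which matched 98.7% of tested genes, and promoters from RefSeq. For each named gene the first promoter window listed was used, and whether its start is the one transcribed here was not tested. On simulated data for the eKD1 comparison (15372 genes), the fit called 11% of 200 genes given a log2 change of 1 and 83.5% of 200 given a change of 2, with 2 and 6 false calls.

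The members, the lists and the tests were chosen with earlier results of these data known. Named are the members, LOXHD1, list genes called in a comparison or at a group mean of at least 10 FPKM, and the 3 genes most like each tested member. Genes of the marker and exchanger lists that are not reported here were left out of those lists' counts, sums and medians, but not of the fits. CA3, CA5B, EMB and the genes overlapping members were named outside that rule after their values were seen. Alternatives were a pseudocount of 0.1, no filter, 2 rescalings, a replicate block, a prior with no variance trend, 1 fit to all 8 libraries and omission of each library. A fit of protein-coding genes only, and a fit without genes at 0 in all 4 libraries, were added after the data were seen. Same-numbered libraries of 2 groups deviated together at r = -0.0574 to 0.126, so the numbers were not treated as pairs.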

Additional observations from a re-analysis of the deposited data

Results flagged for a closer look

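SLC4A2, the chloride-bicarbonate exchanger, lay on opposite sides of the shared control hypoxia libraries in the eKD groups. Both eKD1 libraries (160.7 and 141.5 FPKM) were above, and both eKD2 libraries (126.3 and 125.7 FPKM) below, the control hypoxia libraries at 130.5 and 126.8 FPKM. The direct difference of eKD2 from eKD1 was -0.26 on the log2(FPKM + 1) scale (SE 0.0813) and did not pass the threshold (adjusted p = 0.189 by limma, 0.0767 to 0.420 over 13 alternatives). The gap between eKD2 and control hypoxia was small, and at equal FPKM totals the eKD2 difference was 0.076 in place of -0.030.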

How the results depend on the processing

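Over 13 alternatives per comparison, the 7 tested members kept their direction and side of the threshold in 74 of 91 values in hypoxia. The counts were 85 of 91 in eKD1, 87 of 91 in eKD2 and 88 of 91 between the eKD groups. The hypoxia counts here and below include CA9, whose direction could not change from 0 and whose call was kept in 9 of 13 alternatives. Its part in them is no support. The hypoxia call of SLC4A4 (-1.48 to -1.09, adjusted p 0.00222 to 0.108) was kept in 9 of 13 alternatives, and was lost only when a library was left out. With 3 libraries no gene was called by limma in any comparison, so the count of members called in hypoxia ranged from 0 to 0 there (2 or 3 of 7 at an unadjusted p under 0.05), as did the count of all genes (4934 to 6167 at an unadjusted p under 0.05 in hypoxia, 1808 to 2900 in eKD1, 3246 to 4016 in eKD2 and 2286 to 2809 between the eKD groups). The lone library of an arm is then assumed to vary like the pair. The hypoxia call of BSG was kept in 5 of 13 alternatives and was lost without the filter (adjusted p = 0.0788), with the replicate block (0.0996) and without the variance trend (0.150). Equal FPKM totals reversed SLC4A2 (-0.20) and BSG (-0.024) in hypoxia, CA9 (0.067) and BSG (0.037) in eKD1 and SLC4A2 (0.076) in eKD2. That scaling moved the share of higher genes among calls from 50.3% to 28.4% in hypoxia and from 60.3% to 77.5% in eKD2, where median-of-ratios rescaling gave 46.3%. Leaving out a library reversed differences near 0: in eKD1, CA9 (-0.10 to 0.095 over the omissions, and 0.0044 without eKD1 replicate 1), CA13 (-0.19 to 0.0024) and SLC4A4 (-0.039 to 0.26), and between the eKD groups CA11 (-0.28 to 0.16, and 0.033 without eKD1 replicate 1) and SLC4A7 (-0.18 to 0.095). In eKD2, 1 member, BSG, was called with median-of-ratios rescaling, in the fit of all 8 libraries and among protein-coding genes only (adjusted p = 0.0433, 0.0444 and 0.0440). Of all genes, the replicate block called 2570 in place of 4946 in hypoxia and 0 in the other comparisons (2707, 4517 and 3084 at an unadjusted p under 0.05 in eKD1, eKD2 and between them). It changed no other call of a member than that of BSG. In eKD1, 10 genes were called, against 6 without the filter, 761 in the fit of all 8 libraries, 6 without the trend, 155 among protein-coding genes and 17 without genes at 0. In eKD2, 1477 were called, against 25, 2601, 28 and 2462 in the first 4 of these. Between the eKD groups 62 were called, against 13, 1391, 5, 549 and 129. The causes of these shifts were not tested. The call of SLC26A6 in eKD2 was lost in 8 of 13 alternatives, and those of SLC16A3, ASIC1 and SLC9A8 in hypoxia in 6 of 13, HVCN1 in 5 and SLC16A1 in 4, with no change of direction. All FPKM values lack their counts, so differences of low genes such as CA2 and CA12 cannot be set against counting error.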

Other observations

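For 3 genes of the related lists, called between oxygen levels in control cells and picked here after their values were seen, the eKD group means lay between those of normoxia and control hypoxia. SLC9A8, an exchanger of the Golgi, was at 3.48 and 3.97 FPKM in normoxia, 1.58 and 1.83 in control hypoxia, 2.79 and 2.36 in eKD1 and 3.21 and 3.34 in eKD2. ASIC1 was at 4.13 and 2.22 FPKM in normoxia, 9.77 and 12.01 in control hypoxia, 8.05 and 9.03 in eKD1 and 6.97 and 8.22 in eKD2. HVCN1 was at 1.38 and 1.57 FPKM in normoxia, 4.15 and 6.11 in control hypoxia, 2.43 and 4.84 in eKD1 and 1.91 and 3.97 in eKD2, where the eKD1 libraries overlapped control hypoxia. In no eKD comparison were these 3 genes called by limma, with adjusted p-values from 0.0702 for SLC9A8 in eKD2 to 0.524 for HVCN1 in eKD1 against control hypoxia. The control hypoxia libraries are shared by the comparisons set side by side here. A pick by the difference between oxygen levels rests on these same libraries, which favours eKD means in between. The share of all called genes with this pattern was not counted. The eKD1 and eKD2 means also lay in between for SLC16A1 (98.7 and 84.7 FPKM), CA9 (77.0 and 61.5), SLC4A4 (2.999 and 3.28) and BSG (700.4 and 620.2). For each of these the eKD1 libraries overlapped control hypoxia. Their eKD1 differences were near 0, at -0.042, -0.0037, 0.11 and -0.035 in the same order, and none was called. The SLC16A3 means of 8.29 and 7.11 FPKM, by contrast, were above that of control hypoxia at 6.92. Its eKD libraries ran from 6.49 to 8.46 FPKM, a range that overlaps control hypoxia at 6.01 and 7.83.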
